A study of Mus musculus with 8 samples.

Results

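The account concerns 125 microarray probes whose signal was higher in every footpad of Foxc1 cKO mice than in every wild-type footpad and that also varied widely among the knockout footpads. They were selected on their measured values, from 41999 probes with a deposited value on 8 arrays. The deposited value is a log10 signal, so a difference of 1 is a 10-fold change. A probe was kept when its footpad signal was well above background on all 4 knockout arrays, which held for 28948 probes. Its lowest knockout value had to exceed its highest wild-type value, which left 1865. The knockout mean had to exceed the wild-type mean by about 2-fold or more, which left 304. The standard deviation (SD) over the 4 knockout arrays had to reach 0.15, which left 125. The other 179 of the 304 passed the same limit on the difference without varying as widely, with a median of 2.40-fold, and serve as one comparison below. The other 28823 detected probes serve as the second.

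The arrays compared footpad skin of wild-type mice with that of mice in which Foxc1 had been ablated, both on the C57BL6 background. Each genotype had 4 arrays, numbered as replicates 1 to 4. The labels call these biological replicates but number each out of 2, so it is not known whether 4 animals of each genotype were used. Each array is called a footpad here, and n counts arrays. The age, the sex and the driver of the deletion were not given in the sources used here. Each sample was total RNA from punch biopsies of the domed pads, labelled with Cy3 and hybridised beside a universal mouse reference RNA labelled with Cy5, in the same dye orientation on every array. Replicates 1 and 2 of both genotypes shared slide 1, and replicates 3 and 4 shared slide 2. On each, wild-type samples took positions 1 and 2 and knockout samples positions 3 and 4, so genotype and position on the slide cannot be told apart. The median deposited value per array ran from 2.39 to 2.41.

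Foxc1 encodes a forkhead transcription factor. Footpads are the hairless skin in which mice carry eccrine sweat glands, and mice without the factor there were described by the submitters as unable to sweat. A punch of footpad holds cornified epidermis, sweat ducts and glands, dermal fibroblasts, vessels, nerves and resident immune cells, so a transcript can rise because its cell type is better represented or because each cell holds more of it. In bulk RNA, more cells of a type and more RNA per cell cannot be told apart. The array files name probes by identifier and sequence and pair none of them with a gene. Neither the identity of the tissue by its marker genes nor the level of Foxc1 itself could therefore be checked, and the probes are called by their identifiers.

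The following 60-base probes are shown because their values carry the description of the spread: Z00025028-1 varied most among knockout footpads, Z00026647-1, Z00030685-1, Z00024662-1 and Z00008093-1 were far higher in knockout replicate 2 than elsewhere, Z00023637-1 and Z00024658-1 had the largest differences between genotypes, Z00076180-1 and Z00022388-1 were high in knockout replicate 4, and Z00023330-1 was low in that replicate alone. Whole probes are in lower case. For Z00058188-1 a 30-base stretch is shown, with the polyadenylation hexamer AATAAA in capitals.
Z00025028-1: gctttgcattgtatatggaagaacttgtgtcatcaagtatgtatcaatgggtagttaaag
Z00026647-1: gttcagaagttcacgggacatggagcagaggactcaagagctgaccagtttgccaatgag
Z00030685-1: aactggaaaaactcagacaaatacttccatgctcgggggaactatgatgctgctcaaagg
Z00024662-1: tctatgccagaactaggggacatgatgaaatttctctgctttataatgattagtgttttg
Z00008093-1: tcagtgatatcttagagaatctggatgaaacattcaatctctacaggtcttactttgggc
Z00023637-1: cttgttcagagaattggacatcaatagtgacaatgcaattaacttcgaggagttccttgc
Z00024658-1: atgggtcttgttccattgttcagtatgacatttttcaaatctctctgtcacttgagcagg
Z00076180-1: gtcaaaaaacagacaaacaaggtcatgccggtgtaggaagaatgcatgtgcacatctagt
Z00022388-1: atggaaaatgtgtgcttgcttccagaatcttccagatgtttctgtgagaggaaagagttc
Z00023330-1: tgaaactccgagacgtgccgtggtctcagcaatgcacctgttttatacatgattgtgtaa
Z00058188-1: atatgtctacagAATAAAgtcatcatatct

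Further probes share sequence with another probe, found by searching every probe on the array for a stretch of at least 20 bases in common with one of the 125 on the same strand. They are shown because probes with a common stretch give 2 readings of overlapping RNA on the same array. In 4 of the 6 pairs both probes were among the 125, and in 2 pairs the partner was not. Capitals mark the shared stretch, except in Z00031078-1 and Z00031079-1, which match at 59 of 60 bases and where the capital marks the base that differs.
Z00031078-1: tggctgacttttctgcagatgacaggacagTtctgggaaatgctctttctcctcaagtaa
Z00031079-1: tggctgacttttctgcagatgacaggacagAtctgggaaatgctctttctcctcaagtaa
Z00022541-1: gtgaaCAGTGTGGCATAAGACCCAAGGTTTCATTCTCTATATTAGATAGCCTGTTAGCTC
Z00061716-1: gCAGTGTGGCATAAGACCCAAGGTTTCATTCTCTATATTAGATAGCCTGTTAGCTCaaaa
Z00040364-1: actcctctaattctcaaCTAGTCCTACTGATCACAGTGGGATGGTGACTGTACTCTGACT
Z00075233-1: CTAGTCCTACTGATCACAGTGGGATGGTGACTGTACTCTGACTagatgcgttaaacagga
Z00031171-1: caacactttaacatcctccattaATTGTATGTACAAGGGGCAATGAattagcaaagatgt
Z00055534-1: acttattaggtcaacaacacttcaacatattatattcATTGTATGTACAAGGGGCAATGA
Z00022253-1: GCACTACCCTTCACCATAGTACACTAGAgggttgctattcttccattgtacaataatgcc
Z00058599-1: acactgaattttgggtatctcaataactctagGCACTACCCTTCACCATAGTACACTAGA
Z00023306-1: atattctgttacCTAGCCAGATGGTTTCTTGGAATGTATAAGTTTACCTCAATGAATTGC
Z00058720-1: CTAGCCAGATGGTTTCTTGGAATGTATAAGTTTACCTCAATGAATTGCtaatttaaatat

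One probe could be set beside a gene. RefSeq windows running from 250 bases before to 50 bases after gene starts (GRCm38.p6) contained 267 of the 42006 probes whole, none of them among the 125. Z00072994-1 matched 56 of 58 aligned bases at chr9:114330127-114330184 on the plus strand, across the start of Bcl2a1c, a member of the BCL2-related A1 family of survival proteins, whose annotated span is chr9:114330135-114330578. The window of 1 of the 4 Bcl2a1 genes searched was matched. The family's genes are near-identical copies and the probe differs from the genome at 2 bases, so its assignment is uncertain, and it was singled out after the search. Capitals mark the differing bases.
Z00072994-1: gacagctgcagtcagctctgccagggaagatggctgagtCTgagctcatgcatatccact
Wild-type replicates 1 to 4 read 1.17, 1.20, 1.09 and 1.11 for it, and knockout replicates 1 to 4 read 1.56, 2.04, 1.69 and 2.00, all below the background call in wild type. Knockout replicates 2 and 4 were the higher pair. No probe of the 125 shared 20 bases with a RefSeq miRNA.

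Across the 125 probes the knockout mean exceeded the wild-type mean by a median of 0.579 on the log10 scale (3.79-fold), and by between 2.00-fold and 76.0-fold in the deposited values. Deposited differences of at least 10-fold were recorded for 14 probes, of at least 5-fold for 36, and of less than 3-fold for 40. Of these, 6, 9 and 28 were well above background on all 4 wild-type arrays. The remaining folds divide by wild-type values that were in part or wholly near background. The SD over knockout arrays ran from 0.152 to 0.652, with a median of 0.253. The highest knockout footpad exceeded the lowest by a median of 3.49-fold for a probe, by at least 5-fold for 34 probes and by at least 10-fold for 10. These values chose the probes and are given as a description. The wild-type SD had a median of 0.104 and was below the knockout SD in 111 of the 125 probes. The selection set a lower limit on the knockout SD and none on the wild-type SD, so that count too is a description. In the 179 risers of smaller spread the wild-type SD had a median of 0.0944. In the other 28823 detected probes the median SD was 0.0396 over wild-type arrays and 0.0388 over knockout arrays.

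The gap between the groups was narrow for part of the probes. The lowest knockout value lay above the highest wild-type value by a median of 0.221, and by as little as 0.0017 and as much as 1.19. Just inside the limit on the difference lay Z00005981-1 at 0.301025 and Z00060681-1 at 0.313, and just outside it Z00059999-1 at 0.300825 and Z00075438-1 at 0.285. For the SD, Z00027965-1 at 0.152 and Z00022756-1 at 0.154 lay just inside, and Z00031222-1 at 0.1499 and Z00010817-1 at 0.1492 just outside. A further 27 probes met every condition except the difference.

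Detection in wild-type footpads divided the probes. In 65 of the 125 (52.0%) the footpad signal was well above background on all 4 wild-type arrays, against 91.4% of the other detected probes. The same held for 116 of the 179 risers of smaller spread (64.8%). In 24 of the 125 the footpad signal was above background on 1 to 3 wild-type arrays, and in 36 on none of them. For these 36 only a lower bound of the difference can be given. It sets the knockout mean against the lowest signal that was well above background on each wild-type array, or the probe's own where that was higher, on the Cy3 channel alone after loess and quantile normalisation. The bounds ran from at least 1.02-fold to at least 18.7-fold, with a median of 1.33. They hold for that channel and are open to dye bias: for 5 of the 36 the bound lay above the fold from loess-normalised Cy3/Cy5 ratios. The reference signal, which enters the deposited values, was above background on all 8 arrays for 96 of the 125 (76.8%). That share was 95.2% in the other detected probes and 81.6% in the risers of smaller spread. For 13 of the 125 the reference signal was above background on 0 arrays, beside 282 of the other 28823. The 65 probes measured in all 8 footpads had differences of 2.00-fold to 41.9-fold, with a median of 3.24-fold. Their knockout SD had a median of 0.265, their wild-type SD a median of 0.0696, and the knockout SD was the larger in 63 of the 65. These probes too were chosen with a lower limit on the knockout SD and none on the wild-type SD. The count of 63 is therefore a description and does not test whether knockout footpads vary more.

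The knockout arrays differed in how often they were the highest. The selection did not name an array, but it used the spread of the same 4 values, so these counts are a description and the other probes met no such limit. Knockout replicate 2 was the highest of the 4 for 90 of the 125 probes (72.0%), against 19.2% of the other detected probes. Replicate 4 was the highest for 26 (20.8% against 29.9%), replicate 1 for 5 and replicate 3 for 4. The lowest value belonged to replicate 1 for 57 probes (45.6% against 25.7%) and to replicate 3 for 54 (43.2% against 22.4%). It belonged to replicate 4 for 11 (8.80% against 29.3%) and to replicate 2 for 3 (2.40% against 22.7%). In the 179 risers of smaller spread, replicate 3 was lowest for 95 (53.1%), replicate 1 for 54 (30.2%), replicate 4 for 18 and replicate 2 for 12. Among the 65 probes measured in all 8 footpads, replicate 2 was highest for 52 and replicate 4 for 10. Among the 179 risers of smaller spread replicate 2 was highest for 80 (44.7%). The wild-type maxima were spread over the arrays, with 22, 28, 39 and 36 of the 125 probes highest in replicates 1 to 4.

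The median probe exceeded the wild-type mean by 0.415 in knockout replicate 1, by 0.881 in replicate 2, by 0.39965 in replicate 3 and by 0.609 in replicate 4. With the Cy3 signal alone, without division by the reference, the medians were 0.406, 0.890, 0.395 and 0.568. The Cy5 reference signal of the same probes moved by 0.0640, 0.0696, 0.128 and 0.0726, close to the 0.0573, 0.0505, 0.127 and 0.0771 of the other detected probes. The order of the knockout footpads was present in the footpad channel, without the reference. Replicates 2 and 4 occupied position 4 of their slides and replicates 1 and 3 position 3. On slide 1 the position 4 footpad was higher for 116 of the 125 probes (92.8%, against 48.1% of the other detected probes), by a median of 0.441. On slide 2 it was higher for 108 (86.4% against 49.0%), by a median of 0.189. Both held for 101 probes (80.8% against 28.0%), and for 118 of the 179 risers of smaller spread (65.9%). Between the wild-type pair of slide 1 the second footpad was higher for 69 of the 125 probes, by a median of 0.0084, and on slide 2 it was higher for 60, with a median difference of -0.0103. The knockout sample and its position on the slide cannot be told apart. Whether replicates 2 and 4, or replicates 1 and 3, came from the same animal is not known, because the labels number the replicates out of 2.

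Ordering each probe's 4 knockout values and splitting them at the widest gap gave 9 patterns, a description added after the values were seen. Replicate 2 stood alone above the rest in 57 probes (45.6%, against 6.18% of the other detected probes). Replicates 2 and 4 stood together above replicates 1 and 3 in 31 (24.8% against 5.49%). Of the 179 risers of smaller spread, 33 (18.4%) had replicate 2 alone above and 36 (20.1%) had replicates 2 and 4 together above. Replicate 1 stood alone below the rest in 6 and replicate 3 in 12. Replicate 4 stood alone above the rest in 9 (7.20% against 13.2%) and alone below them in 5. The remaining 5 probes were split as replicates 1 and 2 above 3 and 4 in 2, the reverse in 2, and replicate 1 alone in 1. The highest-to-lowest ratio in knockout footpads had a median of 4.35-fold and reached 32.5-fold where replicate 2 stood alone, and had a median of 2.94-fold where replicates 2 and 4 stood together.

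Without knockout replicate 2, 69 of the 125 probes still met both limits, 107 kept the difference and 70 kept the spread. The median difference was then 0.467 and the median SD 0.160. Without replicate 1, 3 or 4 the probes that met both limits numbered 116, 112 and 104.

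In Z00025028-1, the probe with the widest spread, wild-type replicates 1 to 4 read 1.85, 1.93, 1.94 and 1.98, and knockout replicates 1 to 4 read 2.72, 4.23, 3.05 and 3.21. Its knockout footpads spanned 32.5-fold while the wild-type footpads lay close together. The means were 1.92 ± 0.0526 and 3.30 ± 0.652 (SD, n = 4 each), a 23.9-fold difference, which was 11.7-fold without replicate 2 and 37.3-fold without replicate 1. The groups did not overlap, as the selection required of every probe.

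Z00026647-1, Z00030685-1, Z00024662-1 and Z00008093-1 shared this shape, with replicate 2 far above the remaining knockout footpads and wild-type values that were tight. Z00026647-1 had wild-type values of 2.64, 2.66, 2.71 and 2.82 and knockout values of 3.61, 4.78, 3.67 and 4.00, a 20.2-fold difference of means with knockout SD 0.537. Z00030685-1 had 2.60, 2.72, 2.73 and 2.70 against 3.40, 4.52, 3.61 and 3.81, a 14.1-fold difference with knockout SD 0.488. In both, replicate 2 exceeded the lowest knockout footpad by more than 10-fold, and without it their differences were 11.2-fold and 8.29-fold. Z00024662-1 had 3.02, 3.05, 3.17 and 3.08 in wild type and 3.41, 4.57, 3.50 and 3.56 in knockout footpads, a 4.78-fold difference of means. Z00008093-1 had 2.15, 2.24, 2.32 and 2.28 against 2.54, 3.71, 2.68 and 2.75, a 4.67-fold difference. In Z00024662-1 and Z00008093-1 replicates 1, 3 and 4 lay close together, and without replicate 2 the differences were 2.57-fold and 2.55-fold.

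The same array was the highest in 3 further probes. Z00009593-1 had wild-type values of 2.02, 2.20, 2.03 and 2.08 and knockout values of 2.99, 3.76, 3.14 and 3.36, a 16.9-fold difference with knockout SD 0.334. Z00032000-1, above background on 3 of 4 wild-type arrays, had 1.69, 1.83, 1.92 and 1.77 against 2.07, 3.03, 2.15 and 2.16. Z00033292-1, above background on 0 wild-type arrays, had 1.48, 1.56, 1.5045 and 1.40 against 1.82, 2.83, 2.02 and 1.89, and was at least 1.63-fold higher in knockout footpads. In Z00032000-1 and Z00033292-1 the remaining 3 knockout values lay far closer to the wild-type values than replicate 2 did, and the deposited differences of 3.54-fold and 4.50-fold were 2.10-fold and 2.66-fold without it.

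Knockout replicates 2 and 4 were high together in 5 of the named probes. Z00023637-1 had wild-type values of 2.51, 2.86, 2.67 and 2.52 and knockout values of 3.66, 4.80, 4.04 and 4.55. Its means of 2.64 ± 0.165 and 4.26 ± 0.511 (SD, n = 4 each) differed by 41.9-fold, the largest difference among the probes measured on all 8 arrays, which was 27.7-fold without replicate 2 and 66.5-fold without replicate 1. Z00058188-1 had 3.01, 3.35, 3.15 and 2.99 against 4.08, 5.15, 4.53 and 5.03, a 37.0-fold difference, which was 59.5-fold without replicate 1. These probes had the same order of the 8 footpads in nearly every place: wild-type replicate 2 was the highest wild-type footpad in both, and the knockout order was 2, 4, 3, 1 in both. Z00002060-1, above background on 1 wild-type array, had 1.09, 1.31, 1.72 and 1.36 against 2.36, 2.81, 2.32 and 2.59. Z00039191-1 had 1.12, 1.23, 1.4936 and 1.4969 against 2.11, 2.82, 2.25 and 2.90, and was at least 2.81-fold higher in knockout footpads. Z00076473-1 had 1.04, 0.848, 0.946 and 1.34 against 1.58, 2.77, 1.83 and 2.83, at least 1.87-fold higher. The reference signal of Z00076473-1 was above background on 0 of the 8 arrays. The deposited difference of Z00076473-1 was 1.21, or 16.2-fold. This fold rose to 27.2 without knockout replicate 1 and fell to 10.4 without replicate 4, by factors of 1.68 and 1.56. Both Z00039191-1 and Z00076473-1 were above background on 0 wild-type arrays.

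For 3 probes the deposited knockout values were all far above the wild-type values, which were not well above background, and the spread was smaller. Z00024658-1 had the largest deposited difference, with wild-type values of 1.30, 1.63, 1.18 and 1.29 and knockout values of 2.83, 3.48, 3.15 and 3.47. It was above background on 0 wild-type arrays, its means were 1.35 ± 0.196 and 3.23 ± 0.310 (SD, n = 4 each), and its Cy3 signal was at least 18.7-fold higher in knockout footpads, against 16.9-fold in loess-normalised ratios. Its reference signal was above background on 5 of the 8 arrays, and its difference was 2.39 from the Cy3 signal alone and 1.23 from loess-normalised ratios. Z00055534-1 had 1.18, 1.33, 1.67 and 1.36 against 2.77, 2.99, 2.52 and 3.00, at least 3.82-fold higher, with the highest value in replicate 4. The reference signal of Z00055534-1 was above background on 0 of the 8 arrays. Z00055534-1 and Z00026923-1 were likewise above background on 0 wild-type arrays. Z00026923-1 had 1.03, 1.04, 1.08 and 1.08 against 2.10, 2.39, 2.33 and 2.52, at least 2.10-fold higher. In each of these 3 the lowest knockout value lay at least 0.852 above the highest wild-type value.

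A few probes departed from the common order. Z00076180-1 was high in knockout replicate 4, with wild-type values of 1.07, 1.29, 1.24 and 1.11 and knockout values of 1.97, 2.27, 1.81 and 2.97, and was at least 1.97-fold higher. Z00022388-1 had 1.65, 1.54, 1.65 and 1.55 against 1.77, 1.68, 1.71 and 2.68, so that 3 knockout footpads lay just above the highest wild-type footpad and replicate 4 alone stood clear of it. Its bound was at least 1.38-fold. Neither probe was well above background in wild-type footpads, and without replicate 4 their deposited folds shrank by factors of 1.73 and 1.74. Of the 5 probes in which replicate 4 stood alone below, named after their values were seen, Z00023330-1 and Z00029530-1 were measured on every array. Z00023330-1 had 2.23, 2.11, 2.20 and 2.36 in wild type and 3.05, 3.07, 3.09 and 2.44 in knockout footpads. Z00029530-1 had 1.80, 1.97, 2.01 and 2.04 against 2.54, 2.43, 2.62 and 2.09. In both, replicates 1, 2 and 3 lay close together and replicate 4 lay just above the wild-type footpads. Z00075343-1, above background on 1 wild-type array, had 1.74, 1.72, 1.58 and 1.87 against 2.53, 2.58, 2.57 and 1.89.

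The probes that share sequence gave a second reading of the same arrays. Z00031078-1 had wild-type values of 3.03, 2.98, 3.04 and 2.86 and knockout values of 3.33, 3.68, 3.35 and 3.58. Z00031079-1, which differs from it at 1 base, had 2.94, 2.89, 2.97 and 2.73 against 3.23, 3.61, 3.25 and 3.52. Their differences were 0.508 and 0.521, and the order of the knockout footpads was the same. Z00022541-1, with 55 bases in common with Z00061716-1, had knockout values of 2.14, 2.92, 2.26 and 2.16, and Z00061716-1 had 2.16, 2.96, 2.24 and 2.25. Replicate 2 stood alone in both, and the differences were 0.704 and 0.541. Z00040364-1 and Z00075233-1, with 43 bases in common, had knockout values of 1.59, 2.27, 1.77 and 1.87 and of 1.88, 2.52, 2.00 and 2.18, in the same order of footpads, and differences of 0.784 and 0.722. Neither was well above background in wild type. Z00031171-1 and Z00055534-1 matched at 40 of 46 overlapping bases and so can bind different, related RNAs. Z00031171-1 had wild-type values of 2.08, 1.82, 2.00 and 1.74 and knockout values of 2.47, 2.95, 2.46 and 2.53, with replicate 2 alone high, whereas replicate 4 was as high as replicate 2 in Z00055534-1. The reference signal of both probes was above background on 0 of the 8 arrays.

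The partners outside the 125 differed in how near they came to the selection. Z00022253-1 had wild-type values of 2.88, 2.90, 2.79 and 2.81 and knockout values of 3.35, 3.42, 3.05 and 3.34, and its partner Z00058599-1 had 2.89, 2.87, 2.78 and 2.84 against 3.23, 3.35, 3.07 and 3.19. The partner's difference was 0.368 against 0.447, and its knockout SD of 0.117 lay under the limit. Both were highest in knockout replicate 2 and lowest in replicate 3. Z00023306-1 had 1.36, 1.03, 1.08 and 1.42 against 1.63, 2.25, 1.68 and 2.18, a difference of 0.713. Its partner Z00058720-1, with 48 bases in common, was above background on 2 of the 4 knockout arrays and 1 wild-type array, with a difference of 0.0681. Its knockout values of 0.736, 1.92, 1.34 and 1.82 had the same order, but its wild-type values of 0.940, 1.44, 2.10 and 1.07 overlapped them.

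Sequence and position on the array were similar to those of other probes. The GC content had a median of 41.7% (range 21.7 to 63.3), against 45.0% in the other detected probes and 43.3% in the risers of smaller spread. The hexamer AATAAA, searched on the probe strand, was present in 11 of the 125 (8.80%), in 7.55% of the other detected probes and in 11.2% of the risers of smaller spread. The probes lay on rows 4 to 515 of 532 and columns 1 to 84 of 85, with 56.0% in the upper rows and 48.8% in the left columns, against 49.7% and 49.2%. None was saturated in the footpad channel (Cy3), and 1, Z00016634-1, had a spot marked as an outlier.

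The contrast between genotypes was fitted across all probes on loess-normalised log2 ratios with limma, with Benjamini-Hochberg adjustment at 0.05. Over all 29879 probes tested, 677 were higher in knockout footpads (2.27%) and 270 lower (0.904%). Of the 125, 42 were called higher and none lower, and at an unadjusted p under 0.05 there were 109 higher and 0 lower, beside 15.3% of all probes in either direction. Because the same contrast chose the probes, nothing is read from that count. It was 22 or 23 when any one of the 4 wild-type arrays was left out, beside 301 to 401 higher over all probes. Without knockout replicate 2 it was 55, beside 387 of 29878.

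The Cy5 channel held the same reference RNA on every array and asked whether the probes moved where no footpad RNA was present, although the deposited values are divided by it. Of 32692 probes tested with limma on quantile-normalised log2 Cy5, 0 (0%) were higher and 0 (0%) lower in knockout arrays, and 534 had an unadjusted p under 0.05. Of the 103 of the 125 that could be tested, 0 were called, and 3 higher and 0 lower had an unadjusted p under 0.05. Their median difference was 0.02 log2, beside 0.01 over all probes tested, and the range was -0.45 to 0.71. The upper end was Z00022475-1. Without knockout replicate 3 it was the one probe called, at 0.88 ± 0.06 log2 (SE; limma adjusted p = 0.0227). The wild-type footpads read 3.62, 3.37, 3.14 and 3.48 for it in the deposited table, and the knockout footpads read 4.24, 4.23, 3.83 and 4.11.

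Wild-type footpads were set against the reference, which is a pool of RNA from other mouse sources. The wild-type values also entered the selection, and dye and RNA source cannot be told apart because the dyes were not swapped. Of 29879 probes, limma called 13385 higher in wild-type footpads than in the reference (44.8%) and 11135 lower (37.3%). Of the 125, 22 were higher (17.6%) and 83 lower (66.4%), with a median of -0.69 log2 beside 0.05 over all probes tested. The filter counted all 8 arrays, so the 36 probes above background on no wild-type array were tested only through their knockout arrays. Their wild-type values lay near background. With detection on all 8 arrays, 12 of 65 were higher and 49 lower, beside 12599 and 9989 of 26423 over all probes. With median centring in place of loess the split was 9171 higher and 16163 lower over all probes, and 32 and 84 among the 125. Z00016634-1 lay lowest, at -5.47 ± 0.05 log2 (SE; limma adjusted p = 2.26e-08), and Z00022475-1 highest, at 2.71 ± 0.23 log2 (SE; limma adjusted p = 3.72e-05). Both were singled out after their values were seen. The value of Z00016634-1 on wild-type replicate 3 was left out as an outlier spot. Of the probes described above, Z00026647-1 was at -5.16, Z00033292-1 at -4.25, Z00030685-1 at -4.21 and Z00025028-1 at -3.39 log2, and Z00024662-1 at 0.67 log2. Of these 5 probes, 4 were weaker in wild-type footpads than in the reference and 1 was stronger. Among the 4, Z00033292-1 was above background on 0 wild-type arrays.

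The slides were compared within wild type, where no knockout sample enters, although the wild-type values did enter the selection. Of 29812 probes tested with limma, 6 were higher on slide 2 (0.0201%) and 4 lower (0.0134%), and 3909 had an unadjusted p under 0.05. Of the 124 that could be tested among the 125, 0 were called, and 6 higher and 3 lower had an unadjusted p under 0.05. The filter counted all 8 arrays, and 36 of the 125 were above background on no wild-type array. For those a slide difference could hardly show. With detection on all 8 arrays, 0 of 64 were called, beside 5 higher and 4 lower of 26365 over all probes. The slide differences of the 124 ran from -0.51 to 0.50 log2. With wild-type replicate 3 left out, slide 2 was represented by replicate 4 alone, assumed to vary like the pair on slide 1, and 2 of the 125 were called higher on it, Z00024947-1 and Z00076244-1, beside 172 of all 29841 probes.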

How the data were processed

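Footpad RNA (Cy3) and reference RNA (Cy5) were hybridised to 8 arrays of 60-base probes, with a dye for each RNA. The authors read the arrays with Agilent Feature Extraction (9.5.1.1 in the file headers), which gave an intensity for each spot in each channel. The authors' deposited log10 table equalled log10 processed Cy3 minus log10 processed Cy5 plus the mean log10 Cy5 over arrays, to within 0.00016. Its values were matched to scanner spots by feature number and averaged per probe. The 125 probes were selected on this table. Members and lists were chosen with earlier results of these data known.

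Tests used the scanner intensity columns as deposited. Background was corrected with normexp (offset 50), ratios were loess-normalised, and control and outlier spots were left out. Probes well above background on at least 4 of 8 arrays in the tested channel were fitted with limma 3.58.1 in R 4.3.3, two-sided, with Benjamini-Hochberg adjustment at 0.05. Scripts in Python 3.11.15 made the remaining counts. The fits were tested on simulated data. Each probe stands for 8 arrays, whose number limits the precision.

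The probes named were the 12 with the largest difference, the 12 with the largest knockout SD (6 in both), and the first 5 by difference whose highest knockout array was not replicate 2. The rule was written for gene symbols and applied to identifiers, because no probe could be paired with a gene. Planned marker lists were not used for the same reason. Alternatives were other normalisations, limits and filters, blocks and leaving out each array.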

Additional observations from a re-analysis of the deposited data

Results flagged for a closer look

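Of 36 groups of 4 values, the wild-type and the knockout values of the 18 named probes, 3 held a value whose gap to its nearest neighbour exceeded the 95% limit of Dixon's test, as a share of the whole range. Chance gives about 1 in 20 such groups among unselected values. The knockout values here had chosen the probes, for a wide spread, so that rate does not apply to them and the gaps are a description. The gap was 0.866 of the range for knockout replicate 2 in Z00024662-1, 0.908 for knockout replicate 2 in Z00032000-1 and 0.913 for knockout replicate 4 in Z00022388-1. Each of the 3 values was high, and none of the 18 wild-type groups was marked.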

How the results depend on the processing

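The number of probes selected was 66 from normexp and loess ratios (56 of them among the 125), 199 with an SD limit of 0.10 and 65 with detection on all 8 arrays. It was 143 with the Cy3 signal alone (101 shared), 92 with an SD limit of 0.20, 150 and 105 with difference limits of 0.2 and 0.4, 167 with no detection limit, and 98 to 159 with 1 array left out. Knockout replicate 2 was highest in 80.0% of the probes detected on all 8 arrays, 70.4% with loess ratios and 71.2% with Cy3 alone.

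In the fit of knockout against wild type, median centring gave 150 probes lower, 168 were lower in the authors' values and 171 in the scanner's processed signals. With 1 array left out, 301 to 575 were higher and 112 to 179 lower. Among the 125, 24 of the 65 detected on all 8 arrays were called higher, beside 648 of 26423 over all probes. In the reference channel, leaving out 1 array gave 0 to 1 probes higher, both over all probes and among the 125. With detection on all 8 arrays, 12 of 65 were higher and 49 lower in wild type than in the reference, beside 12599 and 9989 of 26423. The slide difference within wild type rested on the setting: 0 higher and 0 lower with processed signals, 55 and 121 with median centring, 28 and 28 with no filter, and 0 to 172 higher and 0 to 146 lower with 1 array left out (172 and 146 without wild-type replicate 3, 49 and 51 without replicate 4), among the 125 0 to 2 higher. The causes were not tested.

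Leaving out 1 array moved the fold of a named probe by over 1.5 times in 15 of 144 cases: 8 without knockout replicate 2, 4 without replicate 1, 3 without replicate 4 and 0 without replicate 3 or any wild-type array. With loess ratios, 7 named differences moved by over their knockout SD, and with Cy3 alone 1 did. None changed sign.

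Same-numbered arrays of the 2 genotypes had positively correlated deviations of 0.212, 0.188, 0.0891 and 0.421 for replicates 1 to 4. Replicate 3 lay below the limit of 0.1 that had been set, and the main fit did not treat the arrays as pairs. In 7 of 8 arrays the closest array of the other genotype was that of its own number, so a pairing by number remains possible. With the replicate number as a block, 667 probes were higher and 261 lower, 39 of the 125 were higher, and 0 were called in the reference channel. Signals near background limit the 60 probes not detected on every wild-type array.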
